A study of Mus musculus with 3 samples.

Results

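The data described here are chromatin immunoprecipitation peaks of HA-tagged NUR77 in a 1 Mb stretch of mouse chromosome 3. The stretch runs from 95 to 96 Mb in build mm9 and holds the genes Mcl1, Ctsk and Ctss. The members are all peaks of the 3 replicate lists, and all intervals of the authors' table of sites seen in at least 2 replicates, whose centre lies in that stretch. Touching intervals of the table were joined into regions. By this rule the window held 28 of the 9800 regions of the series, 20 of the 6777 peaks of replicate 1, 68 of the 37307 peaks of replicate 2 and 28 of the 8862 peaks of replicate 3. The window was picked because its regions are dense, so their number is a description and carries no test. All 3 samples belong to 1 group: RAW264.7, an established mouse macrophage line, carrying the doxycycline-inducible transgene pINDUCER20b-HA-NUR77, with 6 dishes per replicate given doxycycline at 1 µg/mL for 18 hours. Proteins were cross-linked to each other and to DNA before the HA tag was precipitated. The receptor is overexpressed from a construct, the labels do not say whether the line is 1 clone, and the group has no uninduced counterpart. Whether the peaks reflect NUR77 binding was therefore not tested.

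NUR77, encoded by Nr4a1, is an orphan nuclear receptor that macrophages induce rapidly on activation. It binds DNA as a monomer at a site called NBRE, and as a dimer at a pair of related sites called NurRE. Mcl1 encodes a short-lived member of the BCL2 family that protects cells, myeloid cells among them, from apoptosis. Ctsk encodes cathepsin K, the cysteine protease with which osteoclasts degrade bone collagen, and RAW264.7 cells are widely used as osteoclast precursors. Ctss encodes cathepsin S, a related protease of macrophages and other antigen-presenting cells that trims the invariant chain of MHC class II molecules. In RefSeq's gene table for GRCm38, a later build, the protein-coding genes around them follow in the order Setdb1, 4930558C23Rik, Arnt, Ctsk, Ctss, Hormad1, Golph3l, Ensa, Mcl1, Adamtsl4, Ecm1 and Tars2. Setdb1 encodes a histone H3 lysine methyltransferase and Arnt the dimerisation partner of HIF-1 alpha and the aryl hydrocarbon receptor. Positions in mm9 were available only in rounded form, near 95.3 Mb for Ctsk and Ctss and near 95.46 Mb for Mcl1. Distances from the Mcl1 position are therefore uncertain by 5 kb, and those from the cathepsin position by 50 kb.

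The start sites of the 3 genes are shown by the 250 bases before each start in RefSeq's GRCm38.p6 annotation, on the + strand in each case. They lie at chr3:95498960-95499209 for Ctsk, chr3:95526536-95526785 for Ctss and chr3:95658471-95658720 for Mcl1. These are GRCm38 positions, which cannot be set beside the mm9 positions of the peaks, so no peak was placed on them. Capitals mark matches to the words searched.
Ctsk promoter: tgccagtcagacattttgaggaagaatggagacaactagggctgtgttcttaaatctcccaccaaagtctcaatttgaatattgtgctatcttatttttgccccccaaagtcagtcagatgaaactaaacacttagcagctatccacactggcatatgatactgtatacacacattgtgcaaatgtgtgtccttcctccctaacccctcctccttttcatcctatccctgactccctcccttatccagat
Ctss promoter: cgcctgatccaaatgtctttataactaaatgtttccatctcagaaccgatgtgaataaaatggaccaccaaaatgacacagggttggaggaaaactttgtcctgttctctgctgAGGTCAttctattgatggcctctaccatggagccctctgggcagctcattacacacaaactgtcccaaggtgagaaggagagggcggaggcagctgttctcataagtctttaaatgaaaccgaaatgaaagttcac
Mcl1 promoter: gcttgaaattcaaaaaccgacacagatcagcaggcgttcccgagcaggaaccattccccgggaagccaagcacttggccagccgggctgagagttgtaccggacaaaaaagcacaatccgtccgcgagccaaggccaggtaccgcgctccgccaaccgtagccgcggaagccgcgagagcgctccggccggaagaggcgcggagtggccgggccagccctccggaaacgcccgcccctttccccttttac

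On both strands, the NBRE word AAAGGTCA was not among these letters in any of the 3 promoters, and it occurs in 1.34% of the 32851 promoters of that length in the table. Its last 6 letters, AGGTCA, a core site of many nuclear receptors, matched once, in the Ctss promoter, starting 136 bases before the start site on the + strand. That word is held by 14% of all promoters, and it overlaps the NBRE word by construction. The NurRE parts TGATATTT and AAATGCCA (1.23% and 0.959% of all promoters), the AP-1 word TGANTCA (6.75%) and the PU.1 word GAGGAAGT (2.44%) had no match. The Mcl1 promoter was rich in G and C, at 64.4% with 26 CG pairs, against 43.2% with 0 pairs for Ctsk and 44.8% with 4 pairs for Ctss. The median over all promoters was 52.4% and 6 pairs.

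Among the 1748 windows of 1 Mb with at least 1 region, the median held 4 regions, and 5 windows, this one among them, held 28 or more. The adjoining windows were less dense, with 7 regions from 94 to 95 Mb and 18 from 96 to 97 Mb. Region widths in the window ran from 150 to 602 bp around a median of 326 bp, and the regions together covered 9.38 kb. The regions just inside the borders lay 28.2 kb above the lower and 35.7 kb below the upper border, and the nearest regions outside lay 62.2 kb and 30.9 kb away from them.

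**Figure D1:**
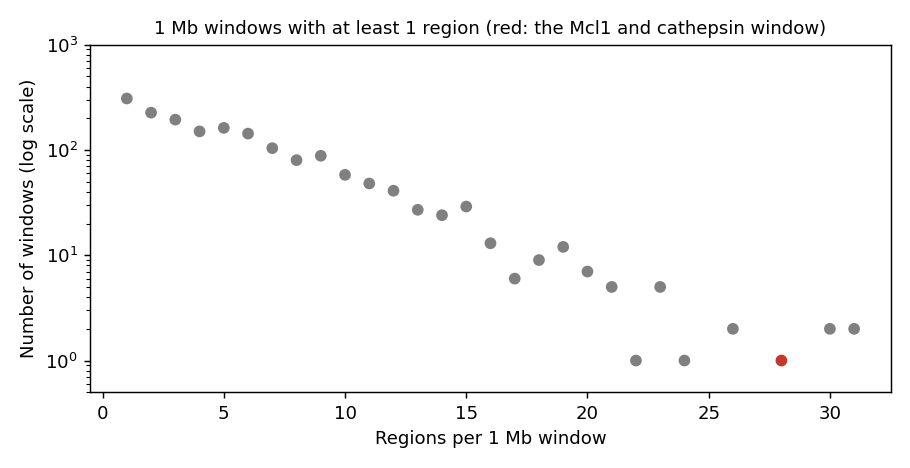
Number of 1 Mb windows (vertical axis, log scale) by the number of regions they hold (horizontal axis), for the 1748 windows with at least 1 region. Each point is a count of windows; the red point is the window with Mcl1, Ctsk and Ctss, which held 28 regions, against a median of 4.

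Most peaks of replicates 1 and 3 overlapped another list, while most of the more numerous replicate 2 peaks did not. The mean number of peaks in the window was 38.7 ± 25.7 (SD, n = 3). The excess of replicate 2 was 3.40-fold over replicate 1 and 2.43-fold over replicate 3, where the whole lists give 5.50-fold and 4.21-fold. A stretch covered by all 3 replicates was present in 14 of the 28 regions (50.0%, 95% Wilson interval 32.6 to 67.4), beside 47.8% of all regions of the series. Another 11 regions were of replicates 2 and 3, 2 of replicates 1 and 2, and 1 of replicates 1 and 3. Without replicate 2 the window had 15 regions, without replicate 3 it had 16 and without replicate 1 it had 25. Of the replicate 1 peaks, 14 of 20 (70.0%, interval 48.1 to 85.5) overlapped both other lists, against 69.1% of the whole list. The same 14 places made up 20.6% (12.7 to 31.6) of the replicate 2 peaks, against 12.7% of its list, and 50.0% (32.6 to 67.4) of the replicate 3 peaks, against 52.8%. The window was picked for its dense regions of at least 2 lists, so these shares are a description and the intervals are not a test. Overlap with at least 1 other list was found for 17 of 20 peaks of replicate 1 (94.3% of the whole list), 27 of 68 of replicate 2 (25.7%) and 26 of 28 of replicate 3 (93.2%).

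Around the position given for Mcl1 the replicates differed. No region of at least 2 replicates had its centre within 20 kb of 95.46 Mb. The nearest were at 95433870 to 95434119, centred 26.0 kb below it, and at 95510320 to 95510469, centred 50.4 kb above it, and both were of replicates 2 and 3. Between them lay 76.2 kb without a region. Replicate 1 had 3 peaks in this gap, at 95449168 to 95449567, at 95454468 to 95455017 and at 95467818 to 95468217. They were centred 10.6 kb below, 5.26 kb below and 8.02 kb above the position. Replicate 2 also had 3 peaks without partner in the gap, all farther from the position, at 95442041 to 95442540 (rank 4489, 17.7 kb below), at 95493741 to 95494190 (rank 27420, 34.0 kb above) and at 95497891 to 95498540 (rank 7944, 38.2 kb above).

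The replicate 1 peaks at 95454468 and 95467818 held the highest scores of replicate 1 in the window, 460.89 and 397.487, at ranks 35 and 50 of 6777. The one at 95449168 scored 77.487 and ranked 1558. None of the 3 peaks of replicate 1 overlapped a peak of another list, and they were all of the replicate 1 peaks in the window that did not. Of the 50 best-scored peaks of replicate 1, 6 overlapped no other list and 38 overlapped both, and 385 of the 6777 (5.68%) overlapped none. Replicate 2 had no listed peak from 95442540 to 95493741, and replicate 3 none from 95434119 to 95510320. Both strong peaks beside the Mcl1 position were thus listed in 1 of the 3 replicates.

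The peak numbers in the names bear on what the lists leave out. Numbers followed chromosome position in all 3 lists, and not every number is listed. In the stretch with the 3 peaks of replicate 1, numbers 28639 and 28640 of replicate 2 were absent from its list, as were numbers 9031 to 9034 of replicate 3. The lists therefore do not show whether replicates 2 and 3 had a numbered but unlisted peak at the same places. Between the first and last listed peak of the window, 24 of 44 numbers were absent in replicate 1 (54.5%, against 39.1% over its whole list), 27 of 95 in replicate 2 (28.4% against 19.7%) and 29 of 57 in replicate 3 (50.9% against 38.8%). Each share was above that of its own list. The longest runs were of 6 absent numbers in replicate 1 (from 95403667 to 95449168, just below the Mcl1 peaks, and from 95468217 to 95643318, just above them), 4 in replicate 2 (from 95581590 to 95620491) and 7 in replicate 3 (from 95643919 to 95761320).

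**Figure D2:**
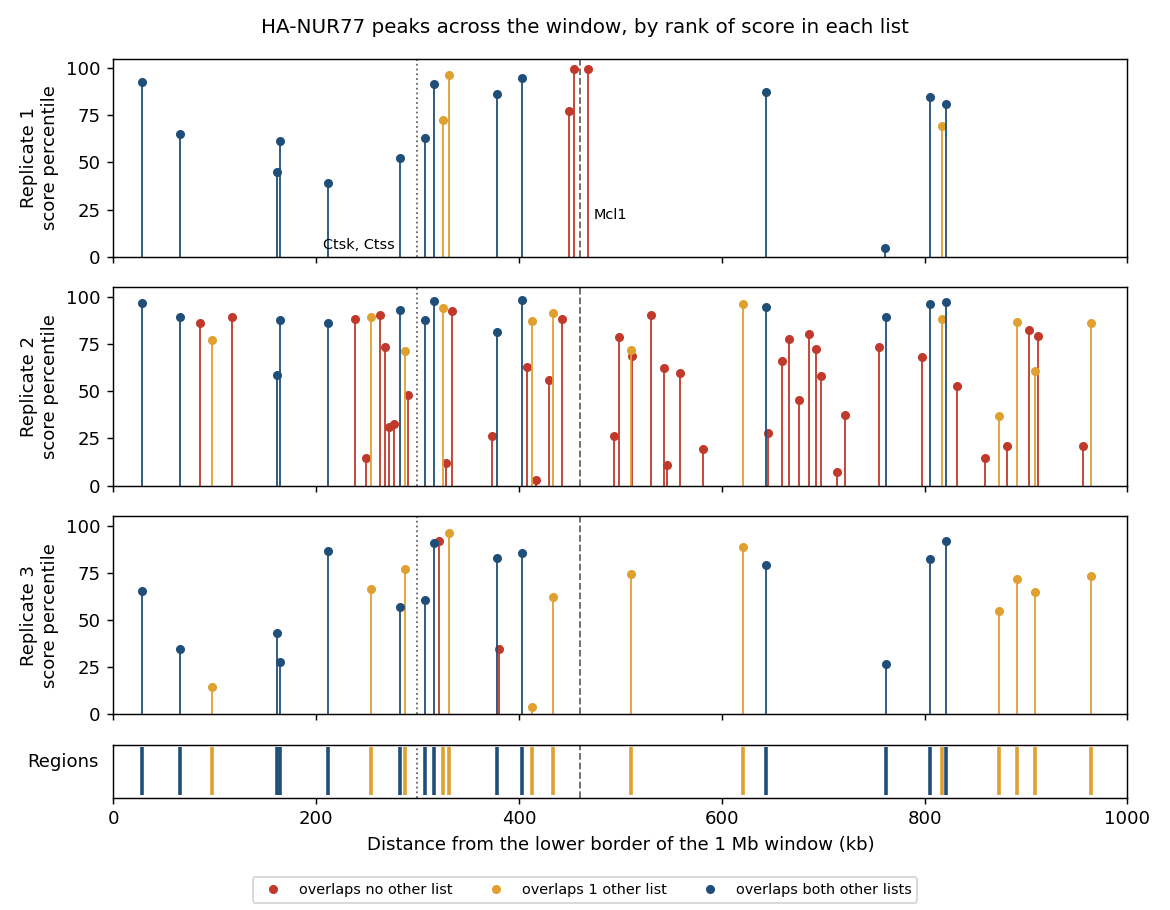
Peaks of replicates 1, 2 and 3 along the window, by distance of the centre from its lower border (kb), with the percentile of each score in its own list as height (100 is the highest score); the lowest track shows the 28 regions. Colour gives how many other lists a peak overlaps (regions: blue for 14 of all 3 replicates, yellow for 14 of 2), and the dotted and dashed lines mark the rounded positions of Ctsk with Ctss and of Mcl1, beside which the 3 red peaks of replicate 1 have no partner.

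Within 50 kb, more regions lay around the rounded position of the cathepsin genes than around that of Mcl1. Within 50 kb of 95.3 Mb there were 7 regions, 3 of them of all 3 replicates, with 5 peaks of replicate 1, 13 of replicate 2 and 7 of replicate 3. Within the same distance of the Mcl1 position there were 2 regions, neither of all 3 replicates, with 3, 7 and 2 peaks. A region of replicates 2 and 3, centred 50.4 kb above the Mcl1 position, lay just outside, and that position is uncertain by 5 kb. The position of the cathepsin genes is itself uncertain by 50 kb. Within 10 kb there was 1 region at the cathepsin position, with 1, 2 and 1 peaks of replicates 1, 2 and 3. At the Mcl1 position there were 0 regions, with 2, 0 and 0 peaks. Within 20 kb there were 4 regions at the cathepsin position and 0 at that of Mcl1. In GRCm38 the promoters of Ctsk and Ctss, starting at 95498960 and 95526536, stand more than 20 kb apart. If they do so in mm9, a 10 kb radius around 1 rounded position cannot cover both. Which region lies nearest to Ctss was not determined. With regions chained where neighbouring centres lay within 12.5 kb, 13 of the 28 regions (46.4%, Wilson interval 29.5 to 64.2) fell into 5 groups, beside 36.1% of all regions of the series. A fixed distance joins more regions where they are dense, so picking a dense window favours a higher share. Membership of neighbouring regions is not independent, and the interval is not a test. The largest group held 4 regions from 95306970 to 95330769, a span of 23.8 kb, with 4 peaks of each replicate. The series holds 116 groups of 4 or more. The number of groups in the window fell to 2 without replicate 2, 3 without replicate 3 and 4 without replicate 1.

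The 4 regions of this group had 3 different sets of replicates. At 95306970 to 95307419, all 3 replicates had a peak, at ranks 2513, 4599 and 3489 in replicates 1, 2 and 3. At 95315670 to 95316219, again in all 3, the ranks were 578, 789 and 820, the lowest mean rank among the 14 regions of all 3 replicates. The scores there were 133.203, 849.551 and 162.729, each in the best-scored 10% of its list. The third, at 95325118 to 95325467, was of replicates 1 and 2, at ranks 1854 and 2316.

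The fourth, at 95330618 to 95330769, was the best-ranked region of the window and was of replicates 1 and 3. Its peaks scored 201.503 at rank 265 of replicate 1 and 254.345 at rank 330 of replicate 3, the latter being the highest score of replicate 3 in the window. Replicate 2 had no peak there. Its nearest peaks were centred 2.88 kb below the replicate 1 peak, at 95327691 to 95328090 with rank 32800.5, and 3.17 kb above it, at 95333641 to 95334240 with rank 2781. The latter was the best-scored peak of the window seen in replicate 2 alone. Here, unlike at Mcl1, replicate 2 had no absent number between its listed peaks on either side. Replicate 3 also had a peak without partner in this group, at 95321470 to 95321669, with a score of 170.899 at rank 737. Both other lists had 1 absent number in the stretch around it.

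The other 4 groups were smaller. A group of 3 regions lay from 95804818 to 95821519, and pairs lay at 95161118 to 95164767, at 95282918 to 95287619 and at 95403218 to 95413369. In the group of 3, the region at 95821020 to 95821519 had ranks of 1284, 945 and 747 and that at 95804818 to 95805167 had 1055, 1514 and 1568, both in all 3 replicates. Between them, the region at 95816668 to 95817067 was of replicates 1 and 2. In the pair at 95161118, both regions were of all 3 replicates and stood 3.30 kb apart, the smallest step in the window. The ranks were 3731, 15553 and 5054 for the region at 95161118 to 95161467 and 2621, 4640 and 6425 for that at 95164418 to 95164767.

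In the pair at 95282918, the region at 95282918 to 95283167 was of all 3 replicates, with ranks of 3223, 2683 and 3804, and its partner was of replicates 2 and 3. In the last pair, the region at 95403218 to 95403719 was of all 3, with scores of 168.11, 928.436 and 124.975. The score of 928.436 was the highest of replicate 2 in the window, at rank 656, and the other ranks were 373 and 1266. Its partner at 95413120 to 95413369 was uneven, at rank 4825 of 37307 in replicate 2 and rank 8523 of 8862 in replicate 3.

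The remaining 6 regions of all 3 replicates stood alone. At 95027870 to 95028467 the ranks in replicates 1, 2 and 3 were 494, 1173 and 3063.5. At 95065968 to 95066319 they were 2363.5, 4040 and 5810.5. At 95211768 to 95212019 they were 4131.5, 5272 and 1189, and this was the only region of all 3 replicates whose percentile was highest in replicate 3. At 95378320 to 95378819 they were 919, 6952 and 1535, and this was the only one highest in replicate 1. At 95643318 to 95643919, the widest region at 602 bp, they were 851, 1967 and 1829. At 95761318 to 95761619 they were 6463, 3947 and 6517, so that the same place was among the lowest-scored peaks of replicate 1, at percentile 4.64, and at percentile 89.4 of replicate 2.

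Across the 14 regions of all 3 replicates, the percentile of the score (the share of the list scored lower, with ties counted evenly) ran between 4.64 and 94.5 for replicate 1, between 58.3 and 98.2 for replicate 2, and between 26.5 and 91.6 for replicate 3. Replicate 2 gave the highest of the 3 percentiles in 12 of the 14. This is not particular to the window: over the whole lists, shared peaks had median percentiles of 51.3, 83.4 and 51.4 in replicates 1, 2 and 3. The same count over all regions of the series was not made. The lists hold 6777, 37307 and 8862 peaks, and percentiles from lists of such unlike length are not on 1 scale. The 11 regions of replicates 2 and 3 included one at 95620720 to 95620919 with ranks of 1493 in replicate 2 and 994 in replicate 3, where replicate 1 had no listed peak. Regions of 2 replicates had a median width of 250 bp, against 401 bp for those of all 3 and 450 bp for those of all 3 over the whole series. Another list can only widen a region or leave it unchanged, so wider regions of all 3 are favoured by construction.

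**Figure D3:**
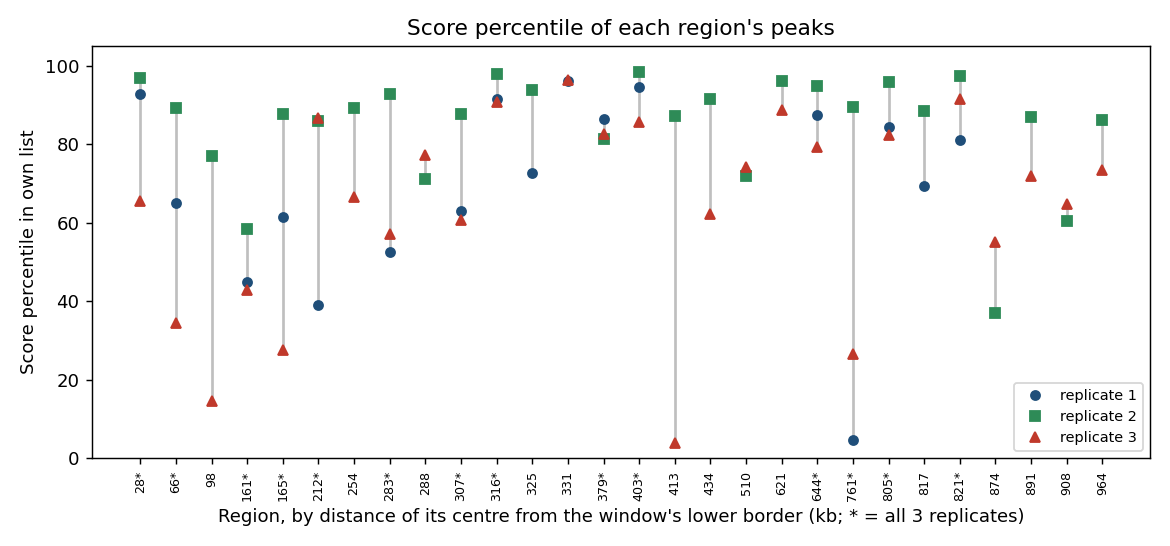
Score percentile in its own list (vertical axis) of the peak of each replicate in each of the 28 regions, in order along the window (horizontal axis, kb from the lower border; asterisks mark the 14 regions of all 3 replicates). Each symbol is 1 peak and grey lines join the lowest and highest. Replicate 2 is highest in 12 of the 14 marked regions, and over the whole lists too its shared peaks have the highest median percentile. The region at 761 kb spans percentiles of 4.64 to 89.4. The lists differ in length, so their percentiles are not on 1 scale.

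Peaks of the window scored above the middle of each list. Their median percentiles in replicates 1, 2 and 3 were 79.0, 75.1 and 69.2, or 74.5 ± 4.95 (mean ± SD, n = 3), where a whole list has 50. In the higher-scored 50% of their lists were 17 of 20, 50 of 68 and 21 of 28 peaks. The best-scored 10% of each list held 6 peaks of replicate 1 (30.0%, Wilson interval 14.5 to 51.9), 13 of replicate 2 (19.1%, 11.5 to 30.0) and 4 of replicate 3 (14.3%, 5.70 to 31.5). These intervals are not a test, and 2 of the 6 peaks of replicate 1 were those beside Mcl1. The choice of the window favours shared peaks, and shared peaks score higher in the whole lists, with median percentiles of 51.3, 83.4 and 51.4 against 26.1, 38.8 and 30.1 for unshared peaks. In the window the shared peaks were at 72.7, 88.4 and 69.2, above the medians of shared peaks of the whole list in each replicate. The unshared peaks of the window, 3, 41 and 2 in number, were at 99.3, 59.5 and 63.2. In replicate 1 they thus stood above the shared peaks, and in replicates 2 and 3 below.

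Where peaks of different replicates overlapped, they were placed close together. The centres lay a median of 27 bp apart for replicates 1 and 2 (16 pairs of peaks), 27 bp for 1 and 3 (15 pairs) and 29 bp for 2 and 3 (25 pairs), against 41, 46 and 42 bp over the whole lists. The largest distance was 254 bp. Peaks were 550 bp wide at the median in replicate 2, 350 bp in replicate 1 and 250 bp in replicate 3. Across the overlapping peaks, percentiles of replicates 1 and 2 had a Spearman rho of 0.69 (16 pairs), those of 1 and 3 had 0.61 (15 pairs) and those of 2 and 3 had 0.40 (25 pairs). These describe neighbouring places of the same 3 libraries, which are not independent, so no p-value is given.

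Replicate 2 alone accounted for 41 peaks of the window. Their percentiles ran from 2.91 to 92.5, with a median of 59.5, against 38.8 for all replicate 2 peaks without partner, and 3 were in the best-scored 10% of the list. Besides the one at 95333641 these were at 95263141 to 95263790, rank 3598.5, and at 95529791 to 95530340, rank 3527. The lower 500 kb of the window held 18 of the 41 and the upper 500 kb held 23. By contrast, 17 of the 28 regions, 15 of the 20 peaks of replicate 1 and 18 of the 28 of replicate 3 were in the lower 500 kb, while replicate 2 had 34 peaks in each. From 95500001 to 95600000 replicate 2 had 7 peaks, replicate 3 had 1 and replicate 1 had none. Of the 10 bins of 100 kb, the most regions, 5, were in those from 95300001 to 95400000 and from 95800001 to 95900000.

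**Figure D4:**
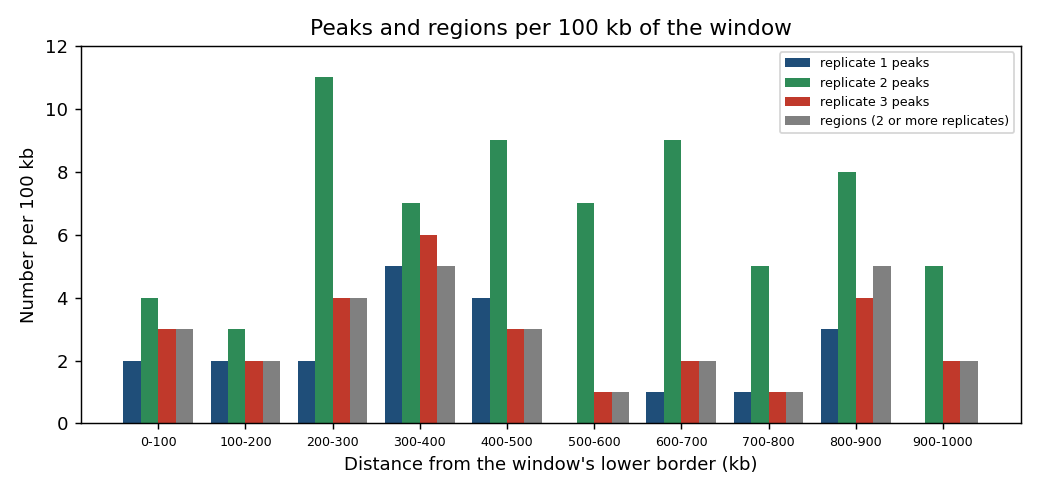
Number of peaks of each replicate and of regions (vertical axis, starting at 0) per 100 kb of the window (horizontal axis, kb from its lower border). Replicate 2 is the tallest bar in each of the 10 bins, with 3 to 11 peaks, while replicate 1 has none in the 500 to 600 kb and 900 to 1000 kb bins.

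For comparison, the next denser windows were on chromosome 10 from 98 to 99 Mb and on chromosome 16 from 24 to 25 Mb, with 30 regions each; the 2 windows with 26 regions were not compared. The Mcl1 and cathepsin window had fewer regions in groups (13, against 17 and 19) and a wider median step between neighbouring centres (24.9 kb, against 19.7 and 19.3 kb). Its share of regions of all 3 replicates, 50.0%, was between 43.3% on chromosome 10 and 60% on chromosome 16. Replicate 1 had 3 peaks without partner here and 1 in each of the other windows. Median percentiles were 79.0, 75.1 and 69.2 here, 53.9, 57.2 and 65.8 on chromosome 10, and 71.3, 64.2 and 65.3 on chromosome 16. Absent peak numbers made up 54.5%, 28.4% and 50.9% here, 35.5%, 10.4% and 21.2% on chromosome 10, and 25.0%, 13.5% and 27.5% on chromosome 16. These windows were picked by the same values and no test was applied between them.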

How the data were processed

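HA-NUR77 was profiled by chromatin immunoprecipitation sequencing in 3 replicates of 1 group. For each replicate the authors deposited called peaks with a peak score of unstated scale, used only to rank peaks within a list. Coordinates are mm9, per the submitters' processing notes, and are printed counted from 1. The sources used here do not name the aligner, caller version, threshold or use of input, and depth is unknown. The authors' deposited table of intervals was rebuilt from the lists: all 19164 intervals had the same borders, and replicate names matched once its names for replicates 2 and 3 were exchanged. This does not show whether the table or the lists carry the wrong names. Replicate numbers here are those of the lists, and statements on replicates 2 and 3 depend on that choice. Peaks overlapping by at least 1 bp were called shared. Neighbouring regions were chained at 50 kb divided by 4. Intervals of 95% (Wilson) cover counting error only. The labels name separate dishes, not separate days.

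The text gives every region of all 3 replicates and the best-ranked region of each group. Regions and genes were chosen with earlier results of these data known, so no test was run. The gene positions in mm9 come from the description of the window, not from an annotation. Sequences of peaks and a planned comparison of the cathepsin proteins were not analysed here. Alternatives were leaving out each replicate, the higher-scored 50% of each list, stricter overlap, other chaining distances, moved windows, merged peaks and other ranks for ties. The code for overlaps and regions was tested on simulated data. Software was Python 3.11.15 with scipy 1.17.1, pandas 2.3.3, matplotlib 3.10.9 and numpy 2.4.6.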

Additional observations from a re-analysis of the deposited data

How the results depend on the processing

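Of 46 values under alternatives, 33 stayed within the replicate SD or within 1.5 times the count. This count is no measure of stability. The SD was wide for the peaks per replicate (38.7 ± 25.7) and for the share overlapping both other lists (46.9 ± 24.9%). With overlap of at least 50% of both peaks that share fell to 31.8%, and with centres within 100 bp it was 44.0%. Both values count as within the SD. Other ranks for ties, merged peaks and any overlap with the window left their values unchanged. Leaving out each replicate gave 15 to 25 regions. Each of them is of all remaining replicates by construction, so these 2 counts among the 46 values are the same number. The groups were 2 to 4, and the centre distance was 27 to 29 bp in regions of all remaining replicates, against a mean of 25.7 bp over the pairs in regions of all 3. The regions were fewest, at 15, without replicate 2, and 16 without replicate 3. With the higher-scored 50% of each list, 9 regions were of all 3 replicates, 3 groups were left, the median percentile within the shortened lists was 65.3 and the centre distance 33.3 bp; fewer peaks enter by construction. Chaining at 5 kb gave 3 groups. Moving the window up by 0.1 Mb gave 32 regions. No paired analysis was possible because all samples belong to 1 group. Depth is unknown, so a place without a listed peak is not shown to be unbound.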

Other observations

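Of the 41 replicate 2 peaks of the window without partner, 36 lay in a stretch between listed replicate 1 peaks that also had an absent peak number (87.8%, against 60.3% of all such replicate 2 peaks), and 32 in such a stretch of replicate 3 (78.0% against 62.5%). All 3 unpartnered peaks of replicate 1 lay in such a stretch of both other lists. Over the whole list, 43.6% of the unpartnered replicate 1 peaks did so in replicate 2 and 60.8% in replicate 3. The 3 replicate 1 peaks shared 1 stretch in each other list, and many of the replicate 2 peaks shared stretches. These peaks are therefore not separate observations, and the shares are a description. Longer stretches hold more numbers, and stretch length was not taken into account. In the authors' deposited table, 39 of the 56 intervals of the window named the same replicates as the lists as written, and the remainder did so only with the names for replicates 2 and 3 exchanged.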
